A study of Mus musculus with 4 samples.

Results

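The genes described here carry names of cyclins, cyclin-dependent kinases (CDKs) and their inhibitors, CDC proteins, E2F factors, the DNA replication machinery, topoisomerase II, the mitotic kinases, the kinetochore, the anaphase-promoting complex and the kinesin motors. The genes were picked by gene symbol alone, with a fixed pattern that left out Cdkn1a, from the deposited list of changed probes. The pattern found 143 genes on 164 probes, of 8519 genes on 9190 probes that carried 1 gene symbol. A further probe with several symbols matched in part and was not used. The array itself held 26423 probes, but names were given only for probes that the authors had called changed, so that a gene of the same families without a called probe was not analysed here. Of a list of 73 textbook cell cycle genes, 46 were measured under a name and 27 were not, Cdk1, Plk1, Aurka, Cdc20, Cdk4 and Mcm5 among the latter.

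The samples were cultures of C17.2, an immortalised mouse neural progenitor line, and their RNA was read on 4 single-colour (Cy5) arrays. All cultures, controls included, received 7.38 mM AAPH, an azo compound that releases peroxyl radicals, for 12 h. In the control group (2 arrays) nothing else was given, and in the berberine group (2 arrays) the medium also contained 1.69 µM berberine, a plant alkaloid. No undamaged culture was analysed here, and all values come from 1 cell line. The median intensity of an array lay between 189 and 333, and the number of arrays limits the precision of every value. The labels do not say whether the 2 samples of a group were separate cultures, so the p-values measure only the spread between these samples, which may be technical.

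Cyclins bind CDKs and set the order of the cell cycle. D-type cyclins act in G1, cyclin E and Cdk2 at the entry into S phase, and B-type cyclins in mitosis. In S phase the origin recognition complex loads the MCM helicase, which GINS helps to activate, and the DNA polymerases copy the strands with a sliding clamp loaded by replication factor C. In mitosis, kinesins shape the spindle, kinetochores attach chromosomes to it, and the checkpoint holds back the anaphase-promoting complex until all are attached. E2F factors switch on many S phase genes, and in many mitotic genes a short promoter element called the cell cycle genes homology region restricts transcription to late in the cycle. Neural progenitors cycle through these steps when they expand.

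With berberine the 143 genes split almost evenly, 69 higher and 73 lower, and the falls were far larger than the rises. Top2a, which untangles chromosomes, dropped from intensities of 22803 and 18534 on the control arrays to 22 and 45 on the berberine arrays, and was at least 171-fold lower. The median of the 73 falls was a log2 fold change of -3.73, or 10.1-fold with probes at background taken at their bound, and the median of the 69 rises was 1.73 (3.32-fold). In total 25 genes (17.5%) were at least 16-fold lower, against 10.3% of all named genes, and 53 (37.1%) at least 4-fold lower, against 27.2%. Rises of at least 4-fold numbered 21 (14.7%), against 18%, and 1 gene, Ccnj, rose at least 8-fold. The remaining gene, Top2b, did not pass. Falls were the larger changes over all named genes as well, where fitted log2 changes ran from -12.5 to 4.37. There 4739 genes rose and 3754 fell, yet 1532 were at least 4-fold higher and 2319 at least 4-fold lower. Larger falls than rises are therefore not particular to the members.

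These calls came from limma on quantile-normalized log2 values, fitted over all 26423 probes, at a Benjamini-Hochberg adjusted p of 0.05. Over all probes 62.7% were called, 40.2% higher and 22.5% lower. Of the 8519 named genes, which the authors had already called on these arrays, 99.7% passed, 55.6% higher and 44.1% lower. That nearly all members passed is therefore no result about them, and their directions (48.3% higher, 51.0% lower) lay near those of the named genes. The groups did not overlap on the representing probe in 81.7% of all probes and in 8517 of the 8519 named genes, or 100%. The median log2 fold change was -1.14 over the members and 1.22 over all named genes. It was 0.39 over all probes, which were not filtered by the authors' calls. No called member had a fitted change between -0.95 and 1.08. A small difference in the share of falls can therefore move the median across this gap. The distance between the member and named-gene medians adds little to the shares lower, 51.0% and 44.1%. When a bound replaced each fold against background, and Cenpf and Top2b were left out for want of one, the member median was -0.62 and that of named genes 1.20. The member median turned to 1.29 over the 110 genes detected in both groups. That filter leaves out 31 members detected in the controls only, all of them falls, and 1 detected with berberine only. The turn therefore follows from the filter and is no result about direction.

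Scaling changed calls among the rises and none among the falls in the following comparison. With the deposited values taken as they stood, 44 members were called higher and 73 lower, and 26 did not pass. Of all probes 13.4% were then higher and 19.8% lower (33.2% in all), and of the named genes 31.1% and 43.3% (74.4% in all). No member changed its sign between these scalings. The 25 calls lost were all rises, and all 73 falls passed under both. Fold changes below are quantile-normalized unless stated.

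**Figure D1:**
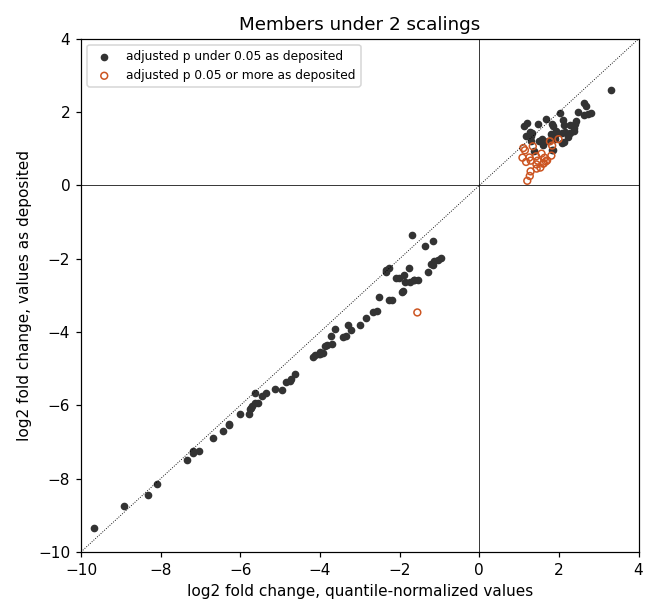
Log2 fold changes (berberine minus control) of the 143 genes on quantile-normalized values (horizontal axis) and on the values as deposited (vertical axis), 1 point a gene, with the dotted line marking equality. No point has opposite signs on the 2 axes, and the open points are the 26 genes that did not pass as deposited, of which 25 are rises and the other is Top2b.

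The authors' sheet gives each probe a detection p-value per group, and 0.01 or more was read as background. Its columns G1 and G3 were read as control and berberine because their mean intensities match those arrays (median differences of 0.273% and 0.661%). A fold against a group at background is a lower bound, written "at least", and is set against the higher of the probe's own signal and the lowest signal detected on that array. In 31 members (21.7%) the probe was detected in the controls only, against 16.6% of named genes, in 1 member with berberine only, against 3.74%, and in Top2b in neither group. A gene with several named probes is represented by the one with the highest mean log2 intensity over the 4 arrays. Each value is the intensity of 1 probe as deposited, given for control arrays 1 and 2 and then for berberine arrays 1 and 2. Levels of different probes are not compared. In this bulk RNA, fewer cells in a phase of the cycle and less RNA per cell cannot be told apart.

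**Figure D2:**
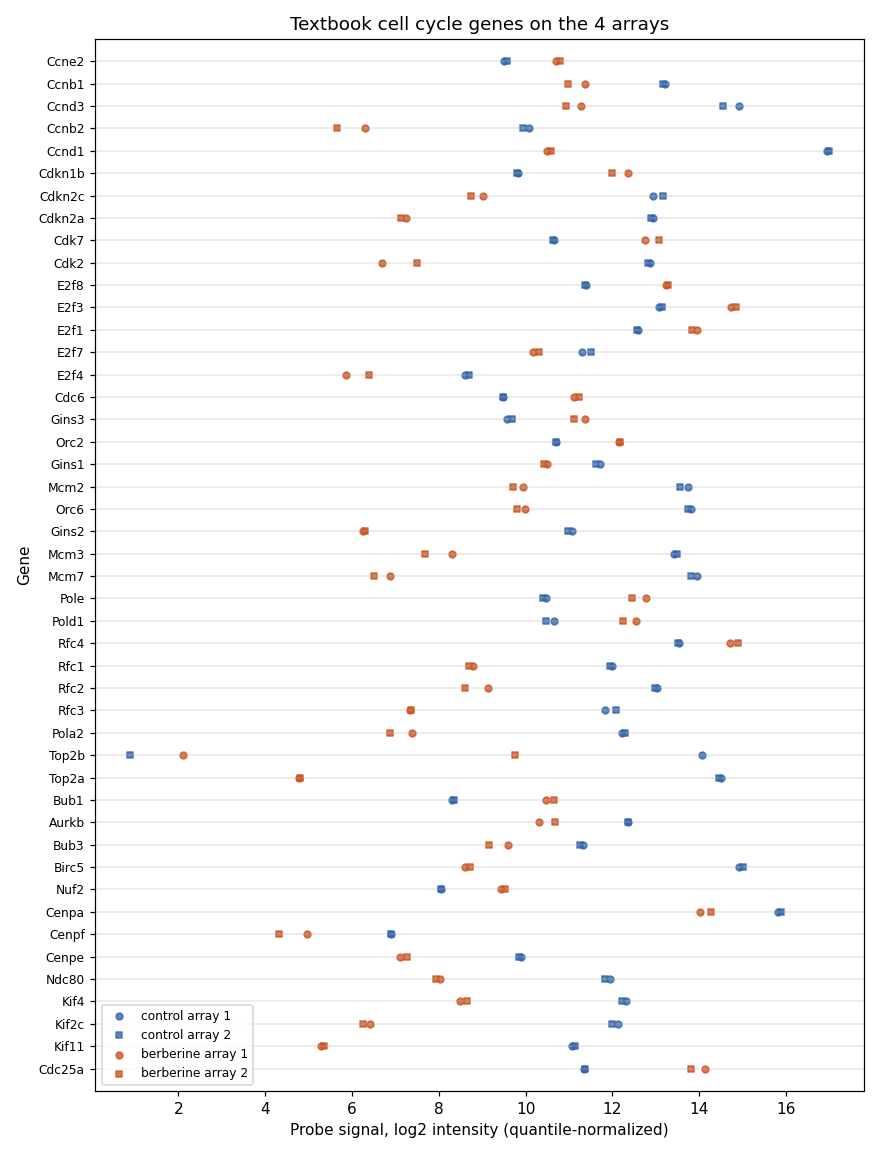
Quantile-normalized log2 intensity (horizontal axis) of the 46 measured textbook genes, ordered by role, with control arrays in blue, berberine arrays in orange, and circles and squares for arrays 1 and 2. In 30 genes both berberine points lie to the left of both control points, in 15 to the right, and in Top2b the 4 points are intermixed.

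Promoters of 8 members are shown here because they hold the motifs under which cell cycle genes are usually grouped and because their probes moved in both directions. Ccnb2, Top2a and Kif11 are mitotic genes whose signal fell, and Kif15 and Kif20b are mitotic kinesins whose signal rose. Mcm3 and Mcm7 are helicase genes that fell, and Cdc25a is a G1/S phosphatase gene that rose. Each sequence runs from 250 bases before to 50 bases after a RefSeq transcription start on assembly GRCm38.p6. Capitals mark TTTNNCGC (E2F-like), TTTGAA (the core of the homology region) and CCAAT (the box bound by NF-Y), read on both strands. They lie at chr9:70421505-70421804 on the minus strand for Ccnb2, chr11:99024140-99024439 on the minus strand for Top2a, chr19:37376132-37376431 on the plus strand for Kif11, chr9:122950831-122951130 on the plus strand for Kif15, chr19:34922108-34922407 on the plus strand for Kif20b, chr1:20820263-20820562 on the minus strand for Mcm3, chr5:138171834-138172133 on the minus strand for the upstream of the listed starts of Mcm7, and chr9:109875329-109875628 on the plus strand for Cdc25a.
Ccnb2: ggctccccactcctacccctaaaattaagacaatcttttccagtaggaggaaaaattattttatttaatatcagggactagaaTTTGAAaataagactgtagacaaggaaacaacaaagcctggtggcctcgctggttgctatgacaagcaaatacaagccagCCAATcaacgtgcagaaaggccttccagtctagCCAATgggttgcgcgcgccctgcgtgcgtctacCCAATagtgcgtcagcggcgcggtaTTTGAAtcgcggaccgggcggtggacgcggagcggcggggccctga
Top2a: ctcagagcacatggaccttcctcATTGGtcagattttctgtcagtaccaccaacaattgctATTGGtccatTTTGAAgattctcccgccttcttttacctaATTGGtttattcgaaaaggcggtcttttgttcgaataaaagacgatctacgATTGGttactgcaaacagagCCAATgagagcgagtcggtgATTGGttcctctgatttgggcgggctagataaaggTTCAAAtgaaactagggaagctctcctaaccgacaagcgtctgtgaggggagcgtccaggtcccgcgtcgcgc
Kif11: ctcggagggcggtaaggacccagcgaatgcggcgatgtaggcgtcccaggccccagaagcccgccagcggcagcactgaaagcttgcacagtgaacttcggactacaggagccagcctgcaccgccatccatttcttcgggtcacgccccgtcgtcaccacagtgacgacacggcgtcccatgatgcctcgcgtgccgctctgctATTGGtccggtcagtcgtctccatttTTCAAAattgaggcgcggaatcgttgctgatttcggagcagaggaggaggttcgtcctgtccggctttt
Kif15: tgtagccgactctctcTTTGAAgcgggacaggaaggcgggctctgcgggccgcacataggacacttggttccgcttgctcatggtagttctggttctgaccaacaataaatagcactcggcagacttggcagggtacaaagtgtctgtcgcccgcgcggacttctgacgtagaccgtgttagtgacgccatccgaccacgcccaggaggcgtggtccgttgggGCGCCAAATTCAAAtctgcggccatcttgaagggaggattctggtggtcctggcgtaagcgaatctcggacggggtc
Kif20b: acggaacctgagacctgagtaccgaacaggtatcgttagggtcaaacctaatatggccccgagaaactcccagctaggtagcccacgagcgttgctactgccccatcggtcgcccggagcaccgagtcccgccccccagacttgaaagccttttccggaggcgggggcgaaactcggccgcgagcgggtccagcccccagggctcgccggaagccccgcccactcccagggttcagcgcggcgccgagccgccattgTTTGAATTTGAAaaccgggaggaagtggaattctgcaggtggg
Mcm3: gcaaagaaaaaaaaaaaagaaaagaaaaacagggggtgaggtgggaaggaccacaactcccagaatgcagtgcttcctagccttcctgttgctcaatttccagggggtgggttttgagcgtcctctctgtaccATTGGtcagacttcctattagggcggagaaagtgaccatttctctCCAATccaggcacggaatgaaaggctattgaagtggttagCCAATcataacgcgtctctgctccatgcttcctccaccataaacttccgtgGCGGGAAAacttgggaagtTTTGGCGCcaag
Mcm7: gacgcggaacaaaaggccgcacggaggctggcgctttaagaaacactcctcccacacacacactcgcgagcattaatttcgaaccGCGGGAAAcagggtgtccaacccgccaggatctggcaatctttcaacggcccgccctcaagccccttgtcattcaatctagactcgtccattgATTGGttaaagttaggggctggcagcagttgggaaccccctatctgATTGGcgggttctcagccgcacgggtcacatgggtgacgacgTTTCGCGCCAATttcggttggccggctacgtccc
Cdc25a: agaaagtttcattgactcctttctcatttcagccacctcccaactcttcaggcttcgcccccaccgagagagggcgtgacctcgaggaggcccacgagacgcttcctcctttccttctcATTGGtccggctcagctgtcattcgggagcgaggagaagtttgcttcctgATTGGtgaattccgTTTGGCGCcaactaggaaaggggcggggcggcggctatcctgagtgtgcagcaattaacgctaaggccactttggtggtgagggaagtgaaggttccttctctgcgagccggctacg
In Kif15 an E2F-like motif and a TTTGAA, both on the other strand, form 1 run of capitals. In Mcm7 an E2F-like motif runs into a CCAAT box, and in Kif20b TTTGAA stands back to back.

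The RefSeq table held 147 promoters for 122 of the 143 genes. The E2F-like motif was found in 15.6% of them, against 5.17% of all 32851 promoters of the table. TTTGAA was found in 22.4% of member promoters, against 17.9%, and CCAAT in 49.7%, against 37.4%. The shares differed by role. The E2F-like motif stood in 36.0% of the 25 promoters of the replication machinery, and TTTGAA in 39.1% of the 46 of the mitotic apparatus, while in the 18 promoters of kinesins outside the mitotic group the first was in none and the second in 5.56%. By direction they lay close together. Promoters of genes that fell and of genes that rose held the E2F-like motif in 16.2% of 74 and 15.3% of 72, TTTGAA in 23% and 22.2%, and CCAAT in 50% and 48.6%. These shares describe letters in a window, with no test, and say nothing of binding.

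The cell cycle cyclins were mostly lower. Of 5 measured, 4 fell and 1 rose, with adjusted p-values from 0.000186 to 0.0021. Cyclin D1 (Ccnd1), the growth factor-induced partner of Cdk4 and Cdk6 in G1, went from 115510 and 98839 to 1026 and 1011, 86.0-fold lower. Both berberine values lay far below both control values, and the probe was above background in each group. Ccnd3, which shares this role, went from 29779 and 19484 to 1907 and 1314 (log2 -3.62 ± 0.210 SE), and its other named probe fell as well, by 1.85. Of the mitotic cyclins, Ccnb1 went from 10774 and 8585 to 2054 and 1345 (log2 -2.02 ± 0.177 SE) and Ccnb2 from 1796 and 1301 to 62 and 64, at least 7.73-fold lower. Ccne2, the partner of Cdk2 at the start of S phase, was the member that rose. Its intensities, from 1190 and 998 to 1200 and 1180, hardly differ as deposited, where the log2 fold change was 0.13 and the adjusted p 0.72. Its rise (log2 1.21 ± 0.116 SE) was called on the quantile-normalized values, but not with cyclic loess (log2 0.29, adjusted p = 0.186).

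The other cyclins, several of which act in transcription, were split, 5 higher (62.5%, against 55.6% of named genes) and 3 lower of 8. Ccnl1, linked to RNA splicing, went from 10902 and 9415 to 137 and 134 (64.0-fold lower). Ccnt1, the cyclin of the elongation factor P-TEFb, went from 1407 and 1104 to 18 and 33 and was at least 6.35-fold lower. Ccnc, the cyclin of the Mediator kinase module, went from 2793 and 2260 to 238 and 227 (log2 -2.56 ± 0.127 SE). All 3 fell with no overlap between the groups. Ccnj had the largest rise of all members, from 582 and 455 to 4039 and 2442, 9.98-fold (log2 3.32 ± 0.176 SE). Ccnk, a partner of Cdk12, went from 5744 and 4829 to 18852 and 13995, and Ccny, a partner of Cdk14, from 4118 and 3103 to 8812 and 7797. The other rises, of Ccnt2 and Ccnl2, were 1.64 and 1.29 in log2, and both lost their call as deposited (adjusted p = 0.0863 and 0.105).

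Of 12 cyclin-dependent kinases whose symbol ends in a number 8 fell (66.7%, against 44.1% of named genes) and 4 rose. Their adjusted p-values ran from 0.000186 to 0.00968. Cdk11b, a further cyclin-dependent kinase, is counted below with the other Cdk names, and it fell. Cdk2, which drives S phase with cyclins E and A, went from 8814 and 7004 to 81 and 164 and was at least 43.2-fold lower, and its other probe, also at background, was at least 14.2-fold lower. Cdk8 and its paralogue Cdk19 are kinases of the Mediator complex. Cdk8 went from 5214 and 4021 to 52 and 46, at least 26.9-fold lower, and Cdk19 from 4548 and 3921 to 395 and 600 (log2 -2.19 ± 0.281 SE). The call of Cdk19 ended without control array 2 (adjusted p = 0.0504). Together with Ccnc, all 3 measured members of the Mediator kinase module were lower. Cdk16, a kinase with a part in neurite growth and vesicle transport, went from 6929 and 5778 to 31 and 56 and was at least 41.7-fold lower. Cdk18, Cdk12, Cdk5 and Cdk9 fell by between 0.95 and 1.95. Cdk7, which activates other CDKs and sits in the transcription factor TFIIH, rose from 2606 and 2085 to 6986 and 7515 (log2 2.27 ± 0.161 SE). Cdk14 rose from 7347 and 5472 to 29912 and 20742 (log2 2.03 ± 0.148 SE). Cdk17 went from 4024 and 3811 to 12644 and 9664 and Cdk20 from 3052 and 2565 to 5512 and 4735 on their brighter probes, but in both genes, and in Cdk12, a further probe moved the opposite way, and the rise of Cdk20 lost its call as deposited (adjusted p = 0.0622).

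Among the 4 CDK inhibitors 3 of the INK4 family, which block Cdk4 and Cdk6, were lower and the CIP/KIP member Cdkn1b was higher. Of all named genes 44.1% were lower. Cdkn2a, which encodes p16INK4a and p19ARF, went from 9232 and 7320 to 120 and 134 and was at least 51.7-fold lower. Cdkn2c (p18) went from 9282 and 8586 to 374 and 325 (log2 -4.17 ± 0.165 SE). Cdkn2d (p19INK4d) went from 821 and 689 to 11 and 94, at least 4.06-fold lower. The berberine arrays of Cdkn2d differed from each other by more than those of Cdkn2a or Cdkn2c, and its call (adjusted p = 0.0283) ended without either control array (0.114 and 0.175). Cdkn1b (p27), which restrains Cdk2, rose from 1488 and 1173 to 5058 and 3064 (log2 2.38 ± 0.173 SE), with both berberine arrays above both controls.

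A further 11 genes have symbols that begin with Cdk, and 8 of them rose (72.7%, against 55.6% of named genes) and 3 fell. Cdk11b is a cyclin-dependent kinase linked to transcription and splicing, placed here by the letter that ends its symbol. It went from 9308 and 7783 to 30 and 74 and was at least 60.0-fold lower. Cdk2ap1, which binds Cdk2, went from 32422 and 22222 to 62 and 64, and its bound, at least 230-fold lower, was the largest among all members. The CDK-like kinase Cdkl3 went from 244 and 184 to 61 and 74 (at least 1.33-fold lower). Cdkn3, a phosphatase that acts on CDKs, rose from 2235 and 1838 to 7782 and 5993 (log2 2.42 ± 0.111 SE). Cdkl2 rose from 1189 and 995 to 3575 and 2621 on its brightest probe, while its other 2 probes fell. Cdkal1, a tRNA-modifying enzyme, rose from 3503 and 3052 to 12965 and 8018. The other 5 rises, of the Cdk5 activators Cdk5r1 and Cdk5r2, of Cdk5rap2, Cdk5rap3 and Cdkn2aip, ran from 1.20 for Cdk5r1 to 2.09 for Cdkn2aip, and those of Cdk5r2, Cdk5rap2 and Cdk5rap3 lost their calls as deposited.

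Of 6 E2F factors 4 rose (66.7%, against 55.6% of named genes) and 2 fell, and all 6 calls held as deposited. The activators rose, E2f1 from 7627 and 6123 to 18174 and 13767 (log2 1.31 ± 0.114 SE) and E2f3 from 9989 and 8554 to 33560 and 30929 (log2 1.68 ± 0.120 SE). The repressor E2f5, which works with pocket proteins, went from 3692 and 2945 to 10051 and 7515 (log2 1.93 ± 0.118 SE). E2f4 shares that role but fell, from 577 and 500 to 47 and 90, at least 3.02-fold lower. The atypical repressors were split too, since E2f8 rose from 4059 and 3249 to 10316 and 8771 (log2 1.88 ± 0.110 SE) and E2f7 fell from 3829 and 3486 to 798 and 840 (log2 -1.15 ± 0.142 SE). Both repressor classes thus held a gene of each direction.

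In the replication machinery 13 of 23 genes (56.5%) fell, against 44.1% of named genes, and 10 (43.5%) rose, against 55.6%. The MCM helicase fell in all 3 of its measured subunits. Mcm7 went from 16474 and 12389 to 92 and 95 and was at least 113-fold lower. Mcm3 went from 12062 and 10326 to 239 and 181 (log2 -5.46 ± 0.253 SE). Mcm2 went from 14532 and 10786 to 671 and 567 and was at least 14.1-fold lower, where the authors' detection p-value placed it at background with berberine although its signal stayed above 500. Of GINS, Gins2 went from 3372 and 2569 to 61 and 86, at least 15.6-fold lower, and Gins1 from 4828 and 3733 to 1021 and 899 (log2 -1.22 ± 0.117 SE), while its other probe fell by 2.92. Gins3 went from 1229 and 1095 to 2082 and 1504 on its brighter probe, lost its call as deposited (adjusted p = 0.179) and fell by 2.56 on its other probe.

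The origin recognition complex was split, 2 lower and 2 higher. Orc6 went from 15440 and 11936 to 698 and 597 (log2 -3.89 ± 0.131 SE) and Orc5 from 6061 and 5622 to 405 and 566 (log2 -2.85 ± 0.248 SE). Orc4 rose from 1746 and 1390 to 3135 and 2944 (log2 1.86 ± 0.116 SE). Orc2 rose from 2703 and 2141 to 4156 and 3554 on its brighter probe but fell by 3.65 on the other, and the rise lost its call as deposited (adjusted p = 0.125). Cdc6, which loads the helicase at origins, went from 1161 and 919 to 1681 and 1636, a rise of log2 1.70 ± 0.116 SE that also lost its call as deposited (0.11). Mcm3ap, an mRNA export factor that the name pattern placed here, went from 5744 and 4721 to 13390 and 10917. Subunits of origin recognition and of GINS thus had both directions, and those of the helicase 1. Adjusted p-values in this group ran from 0.000187 to 0.00206.

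Replication factor C, the clamp loader, fell in 3 of 4 subunits. Rfc3 went from 5165 and 4772 to 129 and 153 and was at least 24.5-fold lower, Rfc2 went from 9641 and 7695 to 405 and 304 (log2 -4.12 ± 0.224 SE) and Rfc1 from 5553 and 4425 to 325 and 316 (log2 -3.22 ± 0.116 SE). Rfc4 rose from 13136 and 10523 to 32956 and 31646 (log2 1.27 ± 0.128 SE), above background in both groups. Pola2, a subunit of the primase-polymerase complex, went from 6254 and 5255 to 131 and 115 (34.9-fold lower). Polymerase delta was split between its subunits. Pold2 went from 32929 and 23973 to 5719 and 5714 and Pold3 from 4866 and 4079 to 877 and 641, falls of 2.33 and 1.65 in log2. The catalytic subunit Pold1 went from 2616 and 1875 to 5925 and 3740 and Pold4 from 3630 and 2955 to 9156 and 6218, rises of 1.83 and 1.77 that lost their calls as deposited (adjusted p = 0.0934 and 0.051). Both measured genes of polymerase epsilon rose, the catalytic subunit Pole from 2316 and 1803 to 7091 and 4435 (log2 2.15 ± 0.163 SE) and Pole4 from 4467 and 3673 to 11630 and 9708 (log2 1.81 ± 0.110 SE). Adjusted p-values for these 11 genes ran from 0.000226 to 0.00257.

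**Figure D3:**
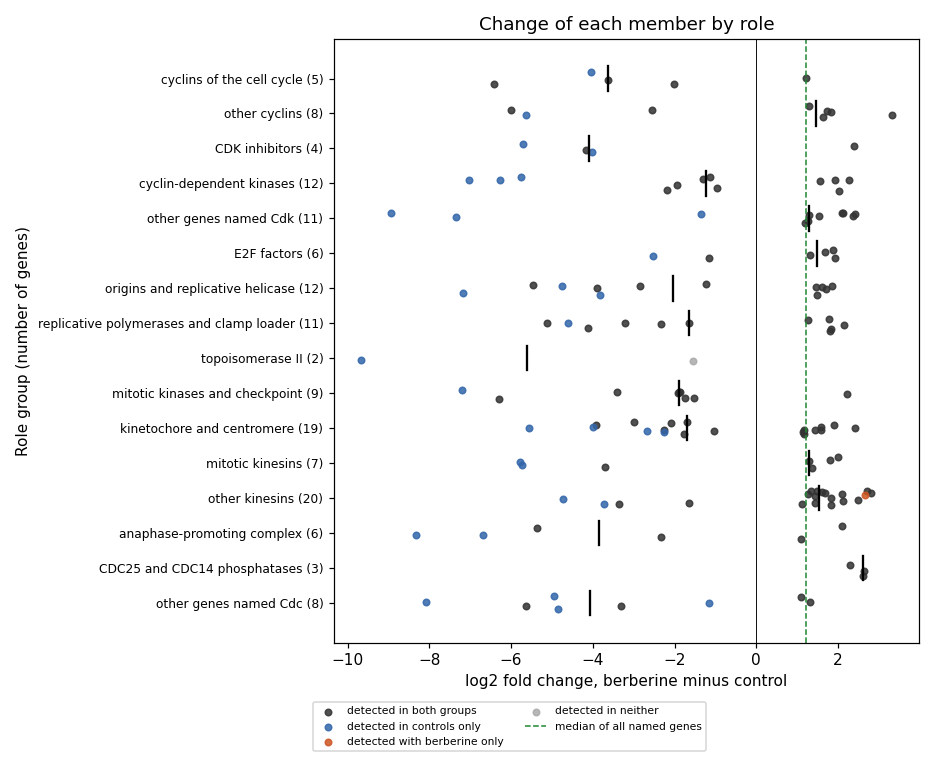
Log2 fold change (berberine minus control, horizontal axis) of each of the 143 genes by role group, coloured by the group in which the authors' detection p-value placed its probe above background, with a black bar at each group's median. Only probes already called by the authors have names and so appear here. Points are fitted values and run from -9.68 to 3.32, and a point detected in 1 group only is no bound (the largest bound among the falls is -7.85). The dashed line is the median of all named genes (1.22).

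In the mitotic apparatus 27 of 43 genes (62.8%) were lower, against 44.1% of named genes. A further 15 (34.9%) were higher, against 55.6%, and Top2b did not pass. As deposited 27 were lower and 9 higher. The probe series of these genes, described below, went with their direction. Mitotic kinases and checkpoint genes fell in 8 of 9, with adjusted p-values from 0.000186 to 0.00285. Birc5 (survivin), a subunit of the chromosomal passenger complex, went from 29651 and 26006 to 288 and 317 (78.3-fold lower), and its other probe was at least 3.01-fold lower. Aurkb, the kinase of the same complex, went from 6749 and 5522 to 895 and 1092 (log2 -1.86 ± 0.170 SE). Both were therefore lower on every berberine array. Mad2l2, known from translesion DNA synthesis and an inhibitor of the anaphase-promoting complex, went from 14941 and 14476 to 71 and 124 and was at least 109-fold lower. Mad2l1bp (p31comet), which silences the checkpoint, went from 5017 and 4402 to 237 and 305 (log2 -3.42 ± 0.170 SE). The checkpoint protein Bub3 went from 3912 and 3045 to 534 and 408 (log2 -1.92 ± 0.194 SE), and the polo-like kinase Plk2 from 9041 and 7785 to 1807 and 1293 (log2 -1.88 ± 0.152 SE). Mad1l1 and Plk3 fell by 1.74 and 1.54. The checkpoint kinase Bub1 was the member that rose, from 452 and 376 to 1003 and 1072 (log2 2.23 ± 0.130 SE), but its other probe went from 7756 and 5998 to 29 and 65 and was at least 45.7-fold lower. That other probe has the higher mean on the linear scale, so the direction given for Bub1 depends on how its probe is chosen.

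Kinetochore and centromere genes were lower in 11 of 19 (57.9%, against 44.1% of named genes) and higher in 8. Their adjusted p-values ran from 0.000186 to 0.00844. Cenpc1, which links centromeric nucleosomes to the outer kinetochore, went from 6143 and 5275 to 81 and 105 and was at least 36.3-fold lower. Cenpn, which reads the centromeric nucleosome, went from 1987 and 1599 to 71 and 75, at least 9.03-fold lower, and Cenpt, which recruits the NDC80 complex, from 3231 and 2991 to 229 and 215 (log2 -2.99 ± 0.161 SE). Cenpa, the histone H3 variant of centromeres, fell less, from 52122 and 46677 to 19391 and 19566 (log2 -1.70 ± 0.147 SE). The kinetochore motor Cenpe went from 1567 and 1215 to 110 and 144 and was at least 5.98-fold lower. Cenpf went from 143 and 128 to 23 and 35, where the controls, though detected (log2 6.91 on both), lay below the limit of berberine array 1 (7.31), and no fold is given.

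The 4 subunits of the NDC80 complex, which binds microtubules, did not move together. Ndc80 went from 5455 and 4199 to 198 and 207 (log2 -3.91 ± 0.119 SE). Nuf2 went from 372 and 297 to 482 and 508 (log2 1.43 ± 0.115 SE), and Spc24 and Spc25 rose by 1.18 and 1.57. As deposited Nuf2 and Spc24 lost their calls (adjusted p = 0.157 and 0.2), as did Cenpv (0.0814), and the other probe of Spc24 was at least 8.99-fold lower. Among the remaining members, Cenpj, which builds centrioles, rose from 1768 and 1471 to 5589 and 4685 (log2 2.41 ± 0.109 SE). Cenpw rose from 3930 and 3706 to 7830 and 8532 (log2 1.59 ± 0.194 SE). Cenpl rose from 3171 and 2429 to 7112 and 6247 on its brightest probe and fell on the other 2. Cenpi, Cenph, Cenpb and Cenpp fell by between 1.03 and 2.25, and Cenpv and Cenpk rose by 1.15 and 1.18.

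Mitotic kinesins were split, 4 higher (57.1%, against 55.6% of named genes) and 3 lower of 7. Kif11, the motor that pushes spindle poles apart, went from 3372 and 2834 to 30 and 55 and was at least 16.5-fold lower. Kif2c, which takes microtubules apart at kinetochores, went from 5994 and 4532 to 70 and 85, at least 32.1-fold lower. The chromokinesin Kif4 went from 6560 and 5118 to 268 and 307 (log2 -3.70 ± 0.126 SE), and its other probe was at least 7.08-fold lower. Those 3 had the larger changes. Kif15, which also supports the bipolar spindle, rose from 2545 and 1777 to 6426 and 4054 (log2 1.99 ± 0.177 SE) but lost its call as deposited (adjusted p = 0.0687). Kif18a, which limits chromosome movement, rose from 4818 and 4238 to 8804 and 8683 (log2 1.36 ± 0.144 SE), and Kif20b, active in cytokinesis, rose by 1.29. Kifc5b went from 902 and 769 to 1516 and 1414 and lost its call as deposited (adjusted p = 0.0637). It has a close paralogue in Kifc1, and a probe may read both.

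Of the 6 named subunits of the anaphase-promoting complex, the ubiquitin ligase that starts anaphase, 4 fell (66.7%, against 44.1% of named genes) and 2 rose. Cdc16 went from 5930 and 5094 to 40 and 54, at least 34.5-fold lower. Cdc26 went from 2454 and 2081 to 2 and 21, at least 11.6-fold lower, with fewer than 25 intensity units left on either berberine array. Anapc7 went from 12208 and 10481 to 239 and 206 (41.1-fold lower), and Anapc4 fell by 2.33. Cdc27 rose from 5067 and 3814 to 16493 and 13997 (log2 2.09 ± 0.123 SE). Anapc16 went from 8345 and 6539 to 17692 and 12709 and lost its call as deposited (adjusted p = 0.0697).

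The 2 topoisomerase II genes read very differently. Top2a, the isoform of dividing cells, was at least 171-fold lower with both arrays of a group close to each other. Top2b, the isoform also of resting and neuronal cells, gave intensities of 17604 and 4 in the controls and -20 and 577 with berberine. The replicates of each group thus differed by more than the groups did, the adjusted p was 0.822, and the sign turned without control array 1 or without berberine array 1. The Top2b probe gave no usable comparison.

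Of the phosphatases that act on CDK substrates or CDKs, all 3 rose, against 55.6% of named genes, and each passed as deposited. Cdc25a, which removes inhibitory phosphates from Cdk2, went from 3947 and 3246 to 21443 and 13494 (log2 2.62 ± 0.160 SE). Cdc14a went from 1377 and 1195 to 3526 and 3347 (log2 2.28 ± 0.125 SE). Cdc14b went from 1809 and 1423 to 7780 and 4828 (log2 2.64 ± 0.162 SE) on its brighter probe and fell by 1.78 on the other.

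Kinesins not counted as mitotic above mostly rose, 16 of 20, against 55.6% of all named genes, and 10 of these rises passed as deposited. These kinesins were grouped by symbol and not by function, so the count is no statement about transport motors. Their median log2 fold change was 1.54, beside 1.22 for all named genes. Kif17, a dendritic motor, rose from 253 and 185 to 956 and 768 (log2 2.81 ± 0.149 SE), and Kif21b from 1228 and 1142 to 4864 and 4384 (log2 2.72 ± 0.133 SE). Kif3a, a motor of cilia, rose from 3263 and 2914 to 12476 and 12480 (log2 2.48 ± 0.156 SE), while Kif3b, its partner in the same kinesin, went from 3850 and 3438 to 217 and 206 (log2 -3.36 ± 0.149 SE) and fell on its other probe as well. Kif9 was the only member detected with berberine only, at least 4.61-fold higher. Kif21a went from 2724 and 2449 to 60 and 74, at least 13.4-fold lower, and the endosome motor Kif13a from 823 and 693 to 41 and 46, at least 4.10-fold lower. Of conventional kinesin, Kif5a and Kif5c rose by 1.61 and 2.12, and Kif5b rose by 1.12 on 1 probe and fell by 4.27 on another. Kif16b fell by 1.64, and the other 9 rises, of Kif1b, Kif1c, Kif24, Kif26b, Kif2a, Kif3c, Kif7, Kifc2 and Kifc3, ran from 1.27 for Kif24 to 2.09 for Kif26b.

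The other 8 genes named Cdc do not belong to the cycle's core, and 6 of them fell (75.0%, against 44.1% of named genes). The GTPase Cdc42, which sets cell polarity, went from 22644 and 19265 to 326 and 357 (49.9-fold lower). Its effector kinase Cdc42bpb went from 7905 and 6045 to 11 and 54 and was at least 46.5-fold lower. Cdc40, a splicing factor, went from 5434 and 4701 to 131 and 117, at least 28.7-fold lower. Cdc42ep4 was at least 11.8-fold lower, Cdc42ep1 fell by 3.30, and the Hsp90 co-chaperone Cdc37 was at least 1.53-fold lower. Cdc42ep5 went from 11415 and 8695 to 26759 and 26994 (log2 1.31 ± 0.150 SE), and Cdc42ep3 from 5843 and 4986 to 9155 and 9104, a rise that lost its call as deposited (adjusted p = 0.0732). These genes were placed here by their names alone. Their median log2 fold change was -4.07, or -3.43 with the 4 genes at background at their bound.

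Direction went with the probe's series, read from the prefix of its identifier. Of the 80 members on PH_mM probes 68.8% rose, and of the 63 on mMC or mMR probes 22.2%, while among all named genes the shares were 65.8% and 42.5%. In the mitotic apparatus 11 of 17 genes on PH_mM probes rose (64.7%), and 4 of 26 on mMC or mMR probes (15.4%). Of the 9 mitotic kinase and checkpoint genes 8 lie on mMC or mMR probes, and all 8 fell, while Bub1 lies on a PH_mM probe and rose. All 11 of the other kinesins on PH_mM probes rose, and 5 of 9 on the other series. The part of the probe series in these counts was not tested.

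Several probes were named for 19 members, and in 11 of them (57.9%) the probes moved in opposite directions, against 47.5% of the 623 named genes with several probes. The 2 probes of Bub1 and of Spc24 are both of the PH_mM series. In Birc5, Ccnd3, Cdk2, Gins1, Kif3b and Kif4 all probes fell, and in Kif1b and Kif5a all rose. Directions are therefore those of a probe. With each gene's dimmest probe in place of the brightest, 60 members were higher and 82 lower.

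**Figure D4:**
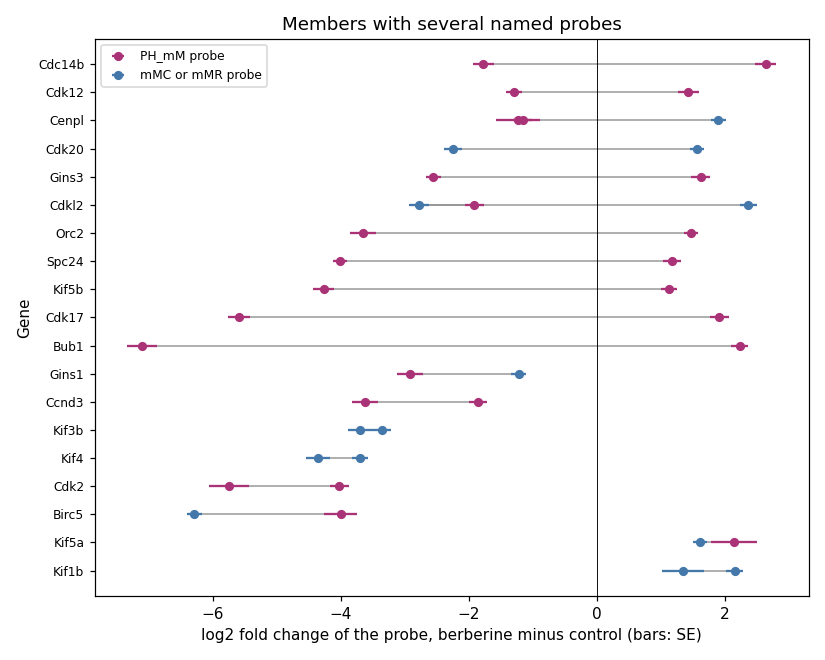
Log2 fold change of every named probe (berberine minus control, horizontal axis, with the standard error of the fit) for the 19 members with several named probes, purple for PH_mM and blue for mMC or mMR probes, with a line joining probes of a gene. In 11 genes the line crosses 0, and in Bub1 the fitted values lie at 2.23 and -7.11, the latter with berberine at background.

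Genes of the same steps outside the name pattern were read from 4 lists, and the genes named are the 3 with the largest changes in each, all of them falls. The counts of each list stand beside 44.1% lower and 55.6% higher among all named genes, as deposited 43.3% and 31.1%. The difference from these shares was not tested. Of 26 other replication genes 17 were named, 11 lower and 6 higher, as deposited 11 and 4. There Rpa3 and Rpa2 of the single-strand binding protein RPA were 74.9-fold and at least 61.6-fold lower, and Dbf4, the activator of Cdc7, 32.4-fold. Of 27 genes of chromosome structure 14 were named, 7 lower and 7 higher, and as deposited 7 lower and none higher. The cohesin subunits Smc3 and Smc1a were at least 127-fold and 31.7-fold lower, and the condensin subunit Smc2 was 29.2-fold lower. Both complexes also held rises, Stag1 of cohesin at 3.25-fold and Ncapg of condensin at 3.02-fold, named here after their values were seen, and neither passed as deposited (adjusted p = 0.117 and 0.125). Of 36 other spindle, kinetochore and cytokinesis genes 24 were named, 19 lower and 5 higher, as deposited 19 and 3. Incenp, the scaffold of the passenger complex with Aurkb and Birc5, was 67.0-fold lower, the spindle factor Tacc3 37.1-fold and Cdca8, also of the passenger complex, at least 24.4-fold. Of 26 further G1/S and G2/M genes 18 were named, 10 lower and 8 higher, as deposited 10 and 6. Fzr1, an activator of the anaphase-promoting complex, was 25.7-fold lower, the transcription factor Mybl2 at least 13.2-fold lower, and Lin54, which binds the homology region, 12.9-fold lower. The largest rises in the 4 lists were 2.16, 1.70, 1.5 and 2.75 in log2, in the order given. These genes passed at adjusted p-values of 0.0348 or less in limma, and their names, too, exist only for probes the authors had called.

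Cell type markers moved between the groups as well. Of 15 markers of neural stem cells and progenitors 6 were named, all 6 above background in the controls, and 4 fell and 2 rose. Their summed intensity was 17959 to 20766 in the controls and 4005 to 4367 with berberine. Markers such as Nes and Sox2 had no named probe and were not analysed here. For comparison, 55.6% of all named genes rose and 44.1% fell, and 65.8% of those on PH_mM probes rose. All 5 named of 8 astrocyte markers rose (summed intensity 3081 to 3694 against 6010 to 6130), as did all 7 named of 9 oligodendrocyte markers (24458 to 30108 against 68439 to 84758) and all 3 named of 5 endothelial markers (1134 to 1275 against 1606 to 1712). Of neuron markers 7 of 10 were named, 4 higher and 3 lower (18355 to 22889 against 6391 to 7100), of fibroblast markers 4 of 5, 1 higher and 3 lower (18532 to 23513 against 7479 to 10408), and of microglia markers 2 of 6, 1 in each direction (805 to 943 against 218 to 291). The sums weigh bright probes most. Among neuron markers Map2 alone went from 11046 and 8854 to 453 and 518, although 4 of the 7 rose. Among oligodendrocyte markers Sox10 alone went from 15718 and 12724 to 40892 and 35984. The PH_mM series held 4 of the 5 astrocyte, 4 of the 7 oligodendrocyte and 1 of the 3 endothelial markers. As deposited 1 astrocyte marker, 3 oligodendrocyte markers and none of the endothelial markers passed as higher, against 31.1% of named genes. At background with berberine were 2 progenitor markers, 1 neuron marker, 2 fibroblast markers and 1 microglia marker. In the controls 1 oligodendrocyte marker and 1 microglia marker were at background. The part of the markers in the results was not tested.

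In the authors' deposited table of biological process terms, 20 of 406 terms matched words for the cell cycle or its steps. Mitochondrial DNA replication, which is no step of the cycle, was among them. Of the 20 terms 7 had a q-value under 0.05. In that table the term cell cycle held 352 called of 614 genes (q = 4.86e-17), cell division 206 of 374 (q = 3.39e-07), mitotic nuclear division 154 of 277 (q = 1.94e-05), chromosome segregation 57 of 89 (q = 0.00137) and DNA replication 74 of 123 (q = 0.00141). These terms pool both directions. Of the members listed under cell cycle in the authors' deposited table, 34 fell and 24 rose, and under cell division 25 fell and 22 rose. Under chromosome segregation 12 fell and 4 rose, under mitotic nuclear division 20 fell and 12 rose, and under DNA replication 13 fell and 8 rose. Of all members 51.0% fell, and of all named genes 44.1%. Of the 143 members 91 stood under at least 1 of the 20 terms and 52 under none. All 5 members under the term for attachment of spindle microtubules to the kinetochore fell, a term that the authors' table gives at q = 0.806. It is 1 of the 20 terms, and some others with fewer members also held falls alone.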

How the data were processed

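The probe intensities of the 4 arrays were used as the authors deposited them, on a linear scale with background handling and scaling not stated in the labels or headers. Per the file headers, the authors' sheet of 9800 changed probes adds gene symbols, a detection p-value, mean intensity and coefficient of variation (a ratio) per group, and a log2 ratio with its p-value. Per the file headers, the authors' term table gives counts of genes per term, the fraction called and a q-value, and a further sheet lists their genes. The groups come from the sample titles.

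Intensities were floored at 1, log2-transformed, quantile-normalized and fitted with limma 3.58.1 (R 4.3.3) over all 26423 probes, 2-sided, with Benjamini-Hochberg adjustment at 0.05. The named probe with the highest mean normalized log2 intensity over the 4 arrays stands for a gene. Array values are given for a textbook list and for up to 3 falls and 3 rises per role group. The fit was tested on simulated data. Members, lists and motifs were chosen with earlier results of these data known. With 2 pairs, the arrays do not show whether replicate numbers pair them (correlation of deviations -0.0156, and 0.575 as deposited), and the numbers were not used as a block. In all, 17 alternatives were run, 2 of them chosen after seeing the data.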

Additional observations from a re-analysis of the deposited data

How the results depend on the processing

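All 73 falls were called under quantile normalization and on the values as deposited, but called rises went from 69 to 44 as deposited (in the mitotic apparatus from 15 to 9, in replication from 10 to 5), and 11 rises lost their call under cyclic loess. Of the falls, 1 lost its call with median centring (Cdkn2d, adjusted p = 0.0657), 1 with averaged probes, 4 without control array 1 and 5 without control array 2, which left between 68 and 73 falls with an array left out. Over members detected in both groups 42 fell, 17 of them in the mitotic apparatus, because 33 members are then left out. The member median of -1.14 was -1.66 as deposited, -1.05 with median centring, -1.72 with cyclic loess, -1.36 when probes of a gene were averaged, -1.70 with the dimmest probe, -1.45 without genes whose probes moved apart, -1.08 to -0.98 with an array left out, and 1.29 over members detected in both groups. With the mean of the probes the fitted sign turned for 10 genes, Bub1 (-2.44), Cdk12 (0.065), Cdk17 (-1.84), Cdk20 (-0.34), Cdkl2 (-0.77), Cenpl (-0.16), Gins3 (-0.47), Kif5b (-1.57), Orc2 (-1.09) and Spc24 (-1.42). With the dimmest probe it turned for 11, Bub1 (-7.11), Cdc14b (-1.78), Cdk12 (1.43), Cdk17 (-5.59), Cdk20 (-2.25), Cdkl2 (-1.92), Cenpl (-1.23), Gins3 (-2.56), Kif5b (-4.27), Orc2 (-3.65) and Spc24 (-4.01). With the probe of highest mean linear intensity, chosen after seeing the data, it turned for Bub1 alone (-7.11), and 68 members rose and 74 fell. Top2b ran from -8.60 to 4.96 with an array left out, and was 2.34 without berberine array 1. The median log2 shift of all probes was 0.39, and 0.13 as deposited, 0.74 with median centring, -0.01 with cyclic loess and 0.24 with a floor of 32. With the replicate block 68 members rose and 73 fell, with a median of -1.14. As deposited with the block, also chosen after seeing the data, 49 rose and 73 fell, with a median of -1.66. The cause of the turned signs and lost calls was not tested. Probes near background limit the size of the largest falls.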
